A study of Mus musculus with 6 samples.

Results

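GAS6, PROS1, AXL, MERTK and TYRO3 are the 2 ligands and the 3 receptors of the TAM family, and their rows were taken by gene symbol from tables of 23282 gene rows, so that 5 rows of 23282 are described. The family was selected on the difference between the groups in these same libraries, above all that of GAS6, so the levels of its members in this contrast are given as a description, without a test. RNA was sequenced from Ink4a -/- murine astrocytes, brain cells grown in culture in medium with serum and lacking the Ink4a tumor suppressor gene in both groups. The Con cells carried the empty vector pcDNA3.1-puro and the JAG1 cells carried pcDNA3.1-JAG1-puro, from which JAG1, a ligand of NOTCH receptors, is overexpressed. Each group had 3 libraries, and the labels give the genotype of the Con cells as WT, which was read as without the JAG1 vector. No label tells if the 3 libraries of either group trace back to separate transfections, so every p-value measures only the spread between these libraries, which may be technical.

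TAM receptors are receptor tyrosine kinases named after TYRO3, AXL and MERTK. GAS6 and PROS1 are secreted proteins that bind phosphatidylserine on dying cells and membranes with a vitamin K-dependent Gla domain and bind the receptors with their other end, so that the receptor cell is told of a dying neighbour. GAS6 binds each of the receptors and is the known ligand of AXL, whereas PROS1, which is also the anticoagulant protein S of blood, acts through TYRO3 and MERTK. In the brain, MERTK is known from microglia and astrocytes that take up debris and synapses, and AXL from invasive glioma cells.

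The libraries held between 14341634 and 20489062 reads on genes. The QuantSeq method reads the 3′ end of polyadenylated transcripts, about once per transcript, so the number of reads does not grow with transcript length and the levels of different genes are set beside each other on this scale. Levels are CPM, reads per 1000000 of the TMM-normalized library, with the SD over the libraries of a group. A count of 3 reads, below which a gene was taken as not told apart from 0, equals 0.148 to 0.206 CPM, for counting error only. Of the rows, 11712 passed the filter on low counts and were tested, and over these the log2 fold change of JAG1 over Con had a median of 0.00386. JAG1 itself had 10.3 ± 1.17 CPM (SD, n = 3) in Con and 14.2 ± 0.862 CPM (SD, n = 3) in JAG1 libraries. The ratio was 1.37, and 1982 of the tested genes had a larger log2 fold change, so this row does not show a strong overexpression. Whether the row collects reads of the vector transcript was not tested. CDKN2A, the gene of the Ink4a locus, had 0 to 5 reads in each library. The astrocyte label was checked on 10 markers. GFAP and AQP4 had 0 reads in every library, the glutamate transporters SLC1A2 and SLC1A3 had at most 2, and the sum of all 10 markers was 337 to 398 CPM in Con and 123 to 137 CPM in JAG1 libraries.

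The 250 bases before the annotated start are shown for 3 members, because their rows behaved most differently: GAS6 was far higher in the JAG1 libraries, TYRO3 was the member that was lower, and MERTK had no read. They are from RefSeq on GRCm38.p6, the build family that the submitters' processing notes name (GRCm38, mm10), and are written 5′ to 3′ on the strand of the gene. Capitals mark the GC box, GGGCGG or its reverse complement CCGCCC, a site of SP1-type factors that was picked after the sequences were seen. The windows lie at chr8:13494536-13494785 on the minus strand for GAS6, at chr2:119799264-119799513 on the plus strand for TYRO3 and at chr2:128698665-128698914 on the plus strand for MERTK. The TYRO3 window lies inside the annotated span of the gene, whose first base is upstream of the start used for the window.
GAS6: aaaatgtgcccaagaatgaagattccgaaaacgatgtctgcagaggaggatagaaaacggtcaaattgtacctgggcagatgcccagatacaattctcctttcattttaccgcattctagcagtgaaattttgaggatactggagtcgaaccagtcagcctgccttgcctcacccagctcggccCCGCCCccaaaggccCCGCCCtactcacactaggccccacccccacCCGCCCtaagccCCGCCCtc
TYRO3: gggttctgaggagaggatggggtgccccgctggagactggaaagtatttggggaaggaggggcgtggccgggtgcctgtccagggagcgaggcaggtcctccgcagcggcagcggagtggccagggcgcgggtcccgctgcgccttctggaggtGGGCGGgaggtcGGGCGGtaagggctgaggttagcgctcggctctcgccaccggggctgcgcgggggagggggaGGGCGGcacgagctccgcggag
MERTK: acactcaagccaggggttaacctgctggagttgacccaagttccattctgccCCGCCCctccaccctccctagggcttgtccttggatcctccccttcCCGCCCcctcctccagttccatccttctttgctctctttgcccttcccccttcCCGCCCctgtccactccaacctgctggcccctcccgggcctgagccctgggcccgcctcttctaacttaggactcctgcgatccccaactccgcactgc

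The GAS6 window held 4 GC boxes, all of them close to the start, while those of TYRO3 and MERTK held 3 each. PROS1, at chr16:62854057-62854306 on the plus strand, held 5, some sharing bases, and AXL, at chr7:25788734-25788983 on the minus strand, held 1. At least 1 such match stood in 33.0% of 32544 windows of the same length. GC content ran from 54.8% in GAS6 and 60.0% in AXL over 63.6% in MERTK and 64.4% in PROS1 to 73.2% in TYRO3, so MERTK, which had no reads, and PROS1, which had many, were close to each other. TGGGAA on either strand, the core letters bound by RBPJ, the DNA-binding partner of the NOTCH intracellular domain, occurred in none of the 5 windows and in 21.6% of all windows. GTCTG on either strand, letters bound by SMAD proteins, occurred once each in GAS6 and AXL and in 42.2% of all windows. The E-box CANNTG occurred once each in GAS6 and PROS1 and in 66.2% of all windows, and the AP-1 letters TGANTCA occurred in no member and in 6.73% of all windows. No match of these motifs shared bases with a GC box in the member windows. These letters are a description of the windows, and binding was not measured.

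GAS6 lies at chr8:13465374-13494535 on the minus strand. It had 9, 8 and 11 reads in the Con libraries and 386, 213 and 302 reads in the JAG1 libraries. As levels, these were 0.444, 0.429 and 0.575 CPM in Con and 19.2, 14.6 and 18.3 CPM in JAG1. All Con libraries stood only a few reads above the limit of 3 reads, all JAG1 libraries were far above them, and JAG1 replicate 2, the smallest library, gave the lowest of the JAG1 levels. The means were 0.483 ± 0.0802 CPM (SD, n = 3) and 17.4 ± 2.43 CPM (SD, n = 3), a ratio of 36.0. On the log2 scale of the fit the difference was 5.16 with a standard error of 0.19, and 74 of the tested genes had a larger one. Because the Con sum was 28 reads against 901 in JAG1, counting error on the Con side adds to the error of the ratio. In Con libraries 11468 of the 11712 tested genes had a higher level than GAS6, and in JAG1 libraries 6468 did, so the gene went from the bottom of the tested range to its middle. The filter on low counts asked for 0.529 CPM in 3 libraries. A single Con library reached that level, so GAS6 entered the tested genes through its JAG1 libraries.

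PROS1 lies at chr16:62854307-62929346 on the plus strand and had 174, 159 and 163 reads in Con and 247, 174 and 243 reads in JAG1 libraries. Its levels were 8.59, 8.53 and 8.52 CPM in Con and 12.3, 11.97 and 14.8 CPM in JAG1 libraries. The Con libraries were nearly identical and the JAG1 libraries were all above them, with JAG1 replicate 3 the highest. The means of 8.55 ± 0.0353 and 13.0 ± 1.52 CPM (SD, n = 3 each) differed by a log2 fold change of 0.61 with a standard error of 0.11, or a ratio of 1.52.

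The make-up of the ligand reads differed between the groups. PROS1 carried nearly all ligand reads in Con libraries, where GAS6 took 4.92%, 4.79% and 6.32% of the reads of both. In JAG1 libraries GAS6 took 60.98%, 55.04% and 55.41%, so it was above PROS1 within each of the 3 libraries, although the lowest GAS6 level of 14.65 CPM lay below the highest PROS1 level of 14.75 CPM. The share of GAS6 was 5.34 ± 0.850% and 57.1 ± 3.33% (SD, n = 3 each). Both ligands together summed to 9.03 ± 0.0681 CPM in Con and 30.4 ± 3.38 CPM in JAG1 libraries (SD, n = 3 each), a ratio of 3.37.

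AXL, the receptor with by far the most reads, lies at chr7:25756500-25788924 on the minus strand. It had 3448, 3103 and 3280 reads in Con and 4333, 3357 and 3479 reads in JAG1 libraries, or 170.2, 166.5 and 171.5 CPM and 215.9, 230.9 and 211.2 CPM. The raw counts of the groups overlapped, while the levels of all JAG1 libraries were above those of all Con libraries. The means were 169 ± 2.58 and 219 ± 10.3 CPM (SD, n = 3 each), with a log2 fold change of 0.37 and a standard error of 0.05, or 29.5% more.

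TYRO3 lies at chr2:119797740-119818104 on the plus strand. It had 1091, 896 and 905 reads in Con and 827, 504 and 601 reads in JAG1 libraries, or 53.9, 48.1 and 47.3 CPM and 41.2, 34.7 and 36.5 CPM. Replicate 1 was the highest of either group, and all JAG1 libraries were below all Con libraries. The means were 49.7 ± 3.57 and 37.4 ± 3.37 CPM (SD, n = 3 each), with a log2 fold change of −0.41 and a standard error of 0.08, so the Con level was 1.33 times the JAG1 level.

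MERTK, at chr2:128698915-128803162 on the plus strand, had 0 reads in each of the 6 libraries. A count of 0 allows up to 3 reads per library, or 0.148 to 0.206 CPM, so no difference between the groups was detectable at this depth. As no library held a read, these data do not show that the row can collect reads, and whether the counted 3′ end matches the transcripts of these cells was not tested.

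**Figure D1:**
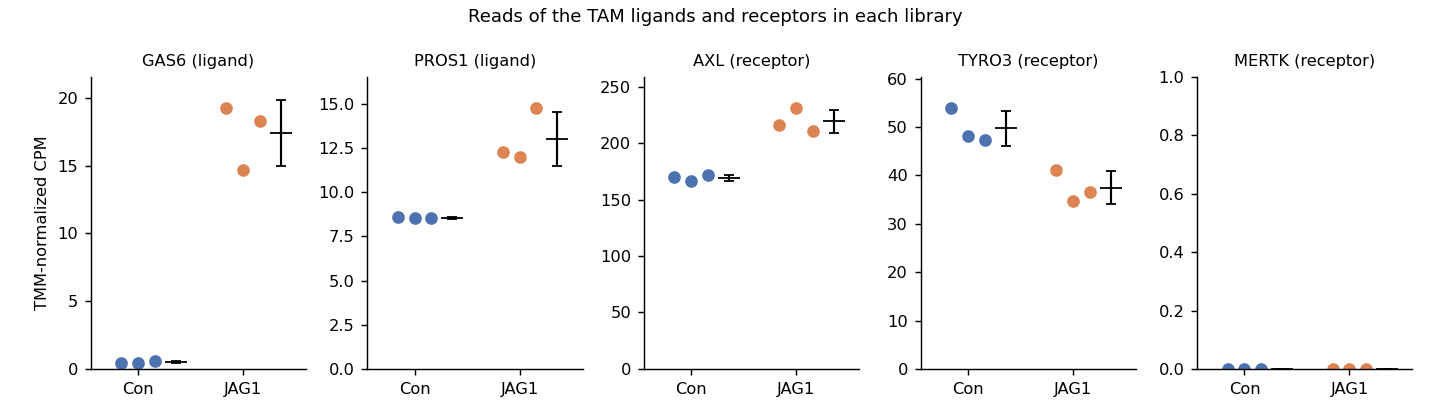
TMM-normalized CPM of each ligand and receptor (vertical axis, a separate linear scale from 0 for each gene) in the Con (blue) and JAG1 (orange) libraries, 1 point per library, with the mean and SD of 3 libraries beside them. GAS6, PROS1 and AXL were higher in every JAG1 library, TYRO3 was lower in every JAG1 library and MERTK stood at 0 in all.

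Of the 5 members, 3 had every JAG1 library above every Con library, which 31.1% of all tested genes did. TYRO3 alone had every JAG1 library below every Con library, as 30.9% of all tested genes had. As these measurements chose the members, nothing is read from the counts. By level, the order in Con libraries was AXL, TYRO3, PROS1, GAS6 and MERTK, with no overlap between neighbours in that order. In JAG1 libraries AXL and TYRO3 kept the first places, the levels of GAS6 and PROS1 overlapped, and MERTK stayed last at 0. The sum of both receptors with reads was 219 ± 4.73 CPM in Con and 257 ± 8.92 CPM in JAG1 libraries (SD, n = 3 each), a ratio of 1.17, which was smaller than that of AXL alone because TYRO3 differed in the other direction.

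Within the receptor reads, AXL took 75.96%, 77.59% and 78.38% in Con libraries and 83.97%, 86.95% and 85.27% in JAG1 libraries. The groups did not overlap, and their means were 77.3 ± 1.23% and 85.4 ± 1.49% (SD, n = 3 each), the rest being TYRO3. For each TYRO3 read there were 3.42 ± 0.236 AXL reads in Con and 5.90 ± 0.717 in JAG1 libraries (SD, n = 3 each). Such shares are ratios within a library and do not depend on the normalization.

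The balance of ligand to receptor was also different. Ligand reads per 100 receptor reads were 4.03, 4.18 and 4.16 in Con libraries and 12.3, 10.0 and 13.4 in JAG1 libraries. Receptor reads outnumbered ligand reads in every library of both groups. For GAS6 and AXL alone, there were 0.261, 0.258 and 0.335 GAS6 reads per 100 AXL reads in Con and 8.91, 6.35 and 8.68 in JAG1 libraries, means of 0.285 ± 0.0439 and 7.98 ± 1.42 (SD, n = 3 each). These are ratios of reads, and neither transcript numbers nor protein were measured.

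**Figure D2:**
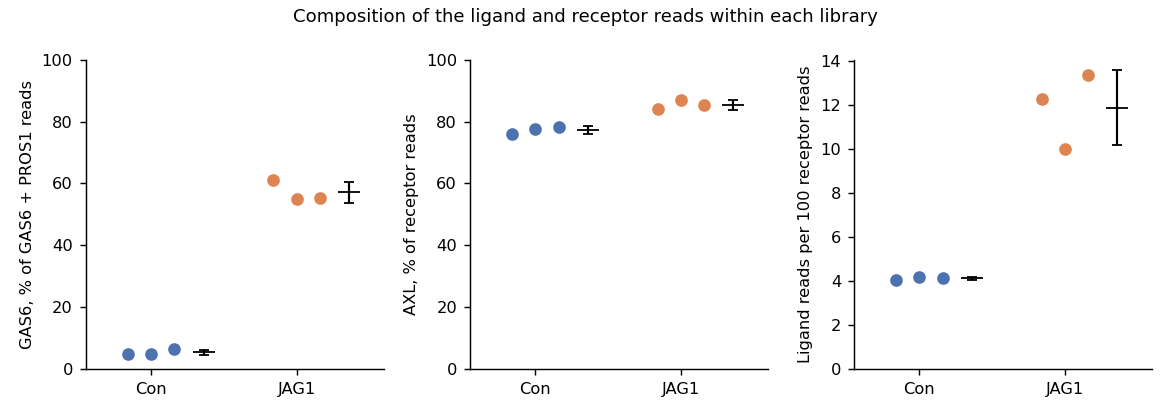
The share of GAS6 in the reads of GAS6 and PROS1 (left, percent), the share of AXL in the receptor reads (middle, percent) and the ligand reads per 100 receptor reads (right), 1 point per library, with the mean and SD of 3 libraries. GAS6 took about 5.34% of ligand reads in Con and 57.1% in JAG1 libraries, AXL 77.3% and 85.4% of receptor reads.

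The other genes through which TAM ligands are made, act and are read out were taken from 11 lists, 140 genes in all, of which 112 passed the filter on low counts. Among these 112 genes, 31 rose and 38 fell in JAG1 cells at an adjusted p under 0.05 from edgeR's quasi-likelihood test with Benjamini-Hochberg adjustment over all tested genes. That is 27.7% and 33.9% of the tested list genes, and 27.4% of all tested genes were higher and 27.7% lower, so the share that rose was close to the background. The median log2 fold change of the list genes was −0.06. All lists except the other Gla proteins held genes that rose beside genes that fell.

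Before they can bind phosphatidylserine, GAS6 and PROS1 are carboxylated by GGCX with vitamin K as cofactor. Of the 8 genes for vitamin K and propeptide processing, all tested, 3 rose and 3 fell (median log2 fold change 0.09). GGCX, the carboxylase itself, fell from 7.44 ± 1.10 to 4.63 ± 0.582 CPM (SD, n = 3 each), a log2 fold change of −0.69 with a standard error of 0.16 (edgeR, adjusted p = 0.00337). NQO1, a quinone reductase that can reduce vitamin K, fell from 100.6 ± 2.22 to 33.2 ± 1.10 CPM (SD, n = 3 each; edgeR, adjusted p = 3.43e-09). VKORC1, the main vitamin K epoxide reductase, had 10.97 ± 0.167 and 11.4 ± 0.722 CPM (SD, n = 3 each) and did not pass. CALU, an endoplasmic reticulum protein that restrains carboxylation, rose from 368 ± 24.8 to 517 ± 34.9 CPM (SD, n = 3 each), a log2 fold change of 0.49 (edgeR, adjusted p = 6.62e-05). The number of these genes that rose was 1 without Con replicate 2 or JAG1 replicate 2 or 3.

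Among 13 other genes of Gla proteins, to which GAS6 and PROS1 belong by their Gla domain, 5 were tested, none rose and 2 fell (median −0.33). MGP, an inhibitor of calcification, fell from 24.7 ± 0.970 to 7.12 ± 1.62 CPM (SD, n = 3 each; edgeR, adjusted p = 6.48e-07), and PRRG2, a membrane-bound Gla protein, fell from 23.9 ± 1.11 to 19.0 ± 1.13 CPM (SD, n = 3 each; edgeR, adjusted p = 0.00557). Of the clotting factor genes, F7, F9 and F10 had at most 4 reads in a library, while F2, prothrombin, had 32, 28 and 13 reads in Con and 11, 14 and 1 in JAG1 libraries and did not pass (edgeR, adjusted p = 0.0724), except without Con replicate 3 or JAG1 replicate 2 (adjusted p = 0.0222 and 0.0365). None of the 5 tested genes was higher in every JAG1 library than in every Con library, as 31.1% of all tested genes were. MGP and PRRG2 were lower in every JAG1 library, as 30.9% of all tested genes were. With 5 tested genes, nothing is read from these counts.

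Phosphatidylserine, the lipid that both ligands bind, is moved by flippases and scramblases. Of 11 such genes 7 were tested, 1 rose and 3 fell (median −0.17). TMEM30A, the partner subunit that flippases need to keep phosphatidylserine inside, rose from 139.7 ± 1.57 to 200.4 ± 6.13 CPM (SD, n = 3 each; edgeR, adjusted p = 4.67e-06). ANO6, the calcium-activated scramblase that exposes it, fell from 128 ± 12.7 to 72.7 ± 1.80 CPM (SD, n = 3 each), a log2 fold change of −0.82 (edgeR, adjusted p = 2.89e-06). PLSCR3 fell by 1.15 on the log2 scale (edgeR, adjusted p = 5.29e-07).

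Other proteins bridge phosphatidylserine to a cell or bind it directly. Of 20 such genes 12 were tested, 3 rose and 7 fell (median −0.24). LGALS3, a galectin also known as a MERTK ligand, rose from 481 ± 4.08 to 1090 ± 59.8 CPM (SD, n = 3 each), a log2 fold change of 1.18 (edgeR, adjusted p = 1.04e-08). ANXA1 rose by a log2 fold change of 1.53 (edgeR, adjusted p = 0.000757) from 153 ± 74.5 CPM (SD, n = 3), the Con libraries being widely spread with Con replicate 1 the lowest. MFGE8, the bridge to integrins, fell from 655 ± 48.4 to 560 ± 18.4 CPM (SD, n = 3 each; edgeR, adjusted p = 0.00718). ITGB5, the integrin chain that pairs with αv to bind MFGE8, fell from 39.6 ± 1.44 to 14.0 ± 0.0956 CPM (SD, n = 3 each; edgeR, adjusted p = 2.82e-08), and THBS1, a matrix protein that bridges dying cells to CD36, fell by 0.89 on the log2 scale (edgeR, adjusted p = 3.70e-06). ITGAV, the αv chain itself, went the other way and rose from 30.4 ± 1.44 to 42.4 ± 0.548 CPM (SD, n = 3 each), with an edgeR adjusted p of 0.000133. MFGE8, ITGAV, EDIL3 and MEGF10 were named after their values were seen. EDIL3, the second integrin bridge, fell from 7.23 ± 1.07 to 0.197 ± 0.0926 CPM, and MEGF10, an engulfment receptor of astrocytes, fell from 6.45 ± 1.59 to 0.674 ± 0.106 CPM (SD, n = 3 each), with edgeR adjusted p of 6.52e-08 and 1.55e-06. EDIL3 had 3, 2 and 5 reads in the JAG1 libraries, about the limit of 3 reads, so the size of its fall is uncertain.

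Engulfment machinery, through which MERTK and the other receptors act on the cytoskeleton, had 12 of 14 genes tested, of which 6 rose and 1 fell (median 0.27). ABCA1, a cholesterol exporter that is induced when cells take up dying cells, rose from 0.835 ± 0.484 to 10.98 ± 0.515 CPM (SD, n = 3 each), a log2 fold change of 3.69 with a standard error of 0.26 (edgeR, adjusted p = 4.06e-07). RAC1, the small GTPase that drives the engulfing cup and a gene named after its values were seen, rose from 615 ± 5.36 to 761 ± 24.4 CPM (SD, n = 3 each; edgeR, adjusted p = 0.000178). CRK, an adaptor upstream of RAC1, had a log2 fold change of 0.39 (edgeR, adjusted p = 0.0153), which missed the threshold without JAG1 replicate 2 or 3 (adjusted p = 0.0583 and 0.0512). The adaptor gene that fell, GULP1, named after its values were seen, was past the threshold at an adjusted p of 0.0333 from edgeR, but not without Con replicate 3 or JAG1 replicate 1 or 2 (adjusted p of 0.0577 to 0.110), when no gene of the list fell, and 2 fell without JAG1 replicate 3.

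**Figure D3:**
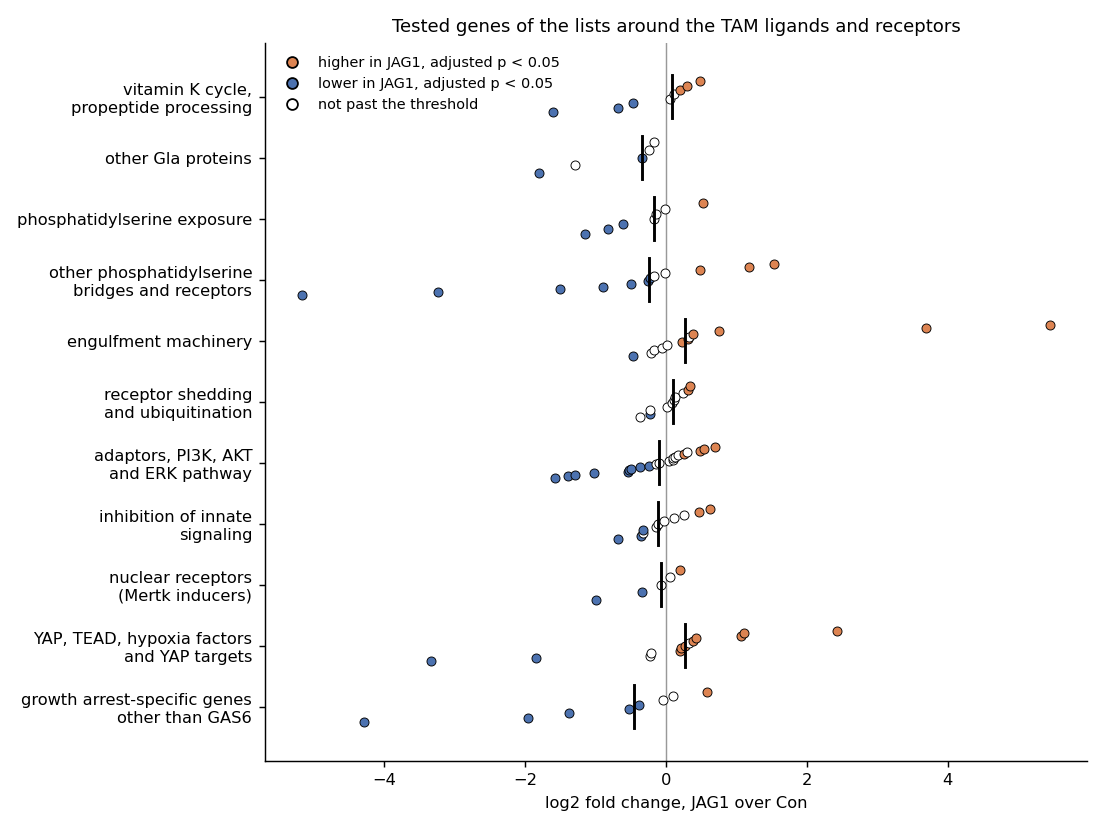
The log2 fold change of JAG1 over Con (horizontal axis) of every tested gene of the 11 lists (rows), 1 point per gene, orange for genes higher and blue for genes lower at an adjusted p under 0.05 and white for the others, with a black bar at the median of each list. Engulfment machinery and the YAP and hypoxia list had medians of 0.27 and 0.28, growth arrest-specific genes other than GAS6 a median of −0.45.

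AXL and MERTK are shed from the surface by ADAM10 and ADAM17, and γ-secretase can cut the stump that remains. Of 11 genes for shedding and ubiquitination 10 were tested, 2 rose and 1 fell (median 0.10). ADAM10 rose from 35.2 ± 2.68 to 44.8 ± 2.85 CPM (SD, n = 3 each; edgeR, adjusted p = 0.00353), and APH1A, a γ-secretase subunit, rose from 118 ± 1.88 to 147 ± 8.78 CPM (SD, n = 3 each; edgeR, adjusted p = 0.000834). ADAM17 had 189.7 ± 10.3 and 206 ± 19.6 CPM (SD, n = 3 each) and did not pass, except without Con replicate 1 (adjusted p = 0.0492). The number of genes that fell was 0 without Con replicate 1 or 2 or JAG1 replicate 1 or 3.

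Downstream of the receptors, 21 of 22 adaptor, PI3K, AKT and ERK genes were tested, 4 rose and 9 fell (median −0.09). AKT1, a kinase through which AXL supports survival, rose from 127 ± 7.13 to 207 ± 8.83 CPM, and MAP2K1, the kinase MEK1, rose from 58.0 ± 6.79 to 84.5 ± 2.75 CPM (SD, n = 3 each), with edgeR adjusted p of 1.81e-06 and 0.000195. PIK3R2, a regulatory subunit of PI3K, fell from 38.3 ± 1.59 to 12.9 ± 1.43 CPM (SD, n = 3 each; edgeR, adjusted p = 1.06e-07), and FYN, a SRC family kinase, fell from 15.4 ± 2.35 to 5.91 ± 0.890 CPM (SD, n = 3 each; edgeR, adjusted p = 1.29e-05). PIK3R1, the more abundant regulatory subunit, named after its values were seen, also fell, from 229.6 ± 3.60 to 113 ± 4.28 CPM (SD, n = 3 each; edgeR, adjusted p = 2.74e-08). AKT1 thus rose in cells in which both regulatory subunits of PI3K fell.

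In immune cells, TAM receptors act with the interferon receptor to induce SOCS proteins and TWIST factors that restrain NF-κB. All 11 genes of this group were tested, 2 rose and 3 fell (median −0.11). NFKB1 and RELA, the NF-κB subunits, rose by log2 fold changes of 0.62 and 0.47 (edgeR, adjusted p = 0.00235 and 4.96e-05). TWIST2 fell from 63.5 ± 3.94 to 39.7 ± 2.34 CPM (SD, n = 3 each; edgeR, adjusted p = 1.38e-05), while TWIST1 had 9.52 ± 1.197 and 11.3 ± 1.66 CPM (SD, n = 3 each) and did not pass, except without JAG1 replicate 2 (adjusted p = 0.0452). SOCS1 and SOCS3 did not pass either. TYK2, a kinase of the interferon receptor, was lower by −0.36 on the log2 scale (edgeR, adjusted p = 0.0131) but not past the threshold without JAG1 replicate 2 (adjusted p = 0.0566), when 1 gene of the group was called lower.

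Some regulators of the receptor genes themselves are known. Of 7 nuclear receptor genes known to induce MERTK 5 were tested, 1 rose and 2 fell (median −0.07). NR1H3, the liver X receptor alpha and named after its values were seen, fell from 3.60 ± 0.602 to 1.80 ± 0.407 CPM, and its partner RXRA fell from 68.4 ± 5.32 to 54.0 ± 3.72 CPM (SD, n = 3 each), with edgeR adjusted p of 0.00284 and 0.00304. RXRB had a log2 fold change of 0.20 with overlapping groups (edgeR, adjusted p = 0.0446), and it missed the threshold without Con replicate 2 or 3 or JAG1 replicate 1 or 3, with an adjusted p of 0.1006 to 0.163.

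Of 14 YAP, TEAD and hypoxia factors known to induce AXL, with targets of YAP, 13 were tested, 8 rose and 2 fell (median 0.28). Without JAG1 replicate 1, 5 rose. TEAD3, a DNA-binding partner of YAP, rose from 2.14 ± 0.710 to 11.5 ± 2.01 CPM, whereas TEAD2 fell from 162 ± 15.3 to 45.2 ± 3.76 CPM (SD, n = 3 each), with edgeR adjusted p of 3.18e-06 and 1.42e-08. The YAP targets also parted. ANKRD1 rose from 195.5 ± 0.814 to 423 ± 23.5 CPM (SD, n = 3 each; edgeR, adjusted p = 1.80e-08), and CCN2, listed as CTGF, fell from 1856 ± 492.8 to 184 ± 14.8 CPM (SD, n = 3 each), a log2 fold change of −3.33 (edgeR, adjusted p = 2.91e-08).

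GAS6 owes its name to its induction when fibroblasts stop growing, together with other growth arrest-specific genes. Of 9 others 8 were tested, 1 rose and 5 fell (median −0.45). GAS1, a membrane protein that blocks entry into the cell cycle, fell from 66.1 ± 7.84 to 17.0 ± 0.857 CPM (SD, n = 3 each; edgeR, adjusted p = 2.44e-08), and PMP22, first cloned as GAS3, fell from 73.8 ± 3.81 to 28.4 ± 1.34 CPM (SD, n = 3 each; edgeR, adjusted p = 3.07e-08). GAS2L3, a cytoskeletal crosslinker, rose by a log2 fold change of 0.59 (edgeR, adjusted p = 0.000382). GAS7, named after its values were seen, fell from 6.20 ± 0.0565 to 0.317 ± 0.182 CPM (SD, n = 3 each), with an edgeR adjusted p of 2.24e-07 and 7, 7 and 2 reads in the JAG1 libraries. In this list 62.5% of the tested genes fell and 12.5% rose, against 27.7% and 27.4% of all tested genes. With 8 tested genes, nothing about GAS6 is read from these shares. The list was drawn up by gene name, and growth arrest of the cells was not measured.

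Protein-coding genes beside each member, 10 on each side in the RefSeq order, were read from the same fit. Of the 20 neighbours of GAS6, 11 were tested, 3 rose and 1 fell (median 0.10), and the size of the GAS6 difference was matched by none of them. RASA3, the nearest tested gene on one side and a GTPase-activating protein, rose from 35.4 ± 1.48 to 89.98 ± 4.25 CPM (SD, n = 3 each), a log2 fold change of 1.34 (edgeR, adjusted p = 2.36e-08). TFDP1, the nearest tested on the other side, had a log2 fold change of −0.17 and passed only without Con replicate 1 (adjusted p = 0.00677). CDC16, DCUN1D2 and CHAMP1 had log2 fold changes of 0.27, 0.35 and −0.19 (edgeR, adjusted p = 0.0168, 0.0428 and 0.0237). CDC16 missed the threshold without Con replicate 2 or JAG1 replicate 3 (adjusted p = 0.0641 and 0.0776), CHAMP1 without Con or JAG1 replicate 3 (0.0530 and 0.0991), and DCUN1D2 without each library in turn (0.0557 to 0.107). TMEM255B, the one annotated gene that overlaps GAS6, lies on the opposite strand and had 0 reads in every library; whether the counting used the strand is not stated.

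For PROS1, 10 of 20 neighbours were tested, 3 rose and 2 fell (median −0.02), with 4930453N24RIK at 0.41 as the nearest tested gene on one side. For AXL, 6 were tested, 1 rose and 2 fell (median 0.18), with HNRNPUL1 at 0.38, not past the threshold, as the nearest on one side and no tested gene on the other. For TYRO3, 10 were tested, 5 rose and 3 fell (median 0.20), and both of its nearest tested neighbours, RPAP1 and MGA, were lower by −0.21 and −0.24 on the log2 scale (edgeR, adjusted p = 0.0357 and 0.0426). Neither call was firm, since RPAP1 missed the threshold without each library except JAG1 replicate 2 (adjusted p of 0.0523 to 0.130) and MGA without Con replicate 2 or JAG1 replicate 2 or 3 (adjusted p of 0.115 to 0.188). With 5 neighbours on each side the median was 0.27 for GAS6 and −0.21 for TYRO3. For MERTK, whose row was empty, 15 neighbours were tested, 6 rose and 1 fell (median 0.13). The genes next to it were read well, ANAPC1 at 66.9 ± 5.01 and 72.9 ± 2.59 CPM and TMEM87B at 17.8 ± 0.447 and 18.5 ± 0.674 CPM in Con and JAG1 libraries (SD, n = 3 each).

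**Figure D4:**
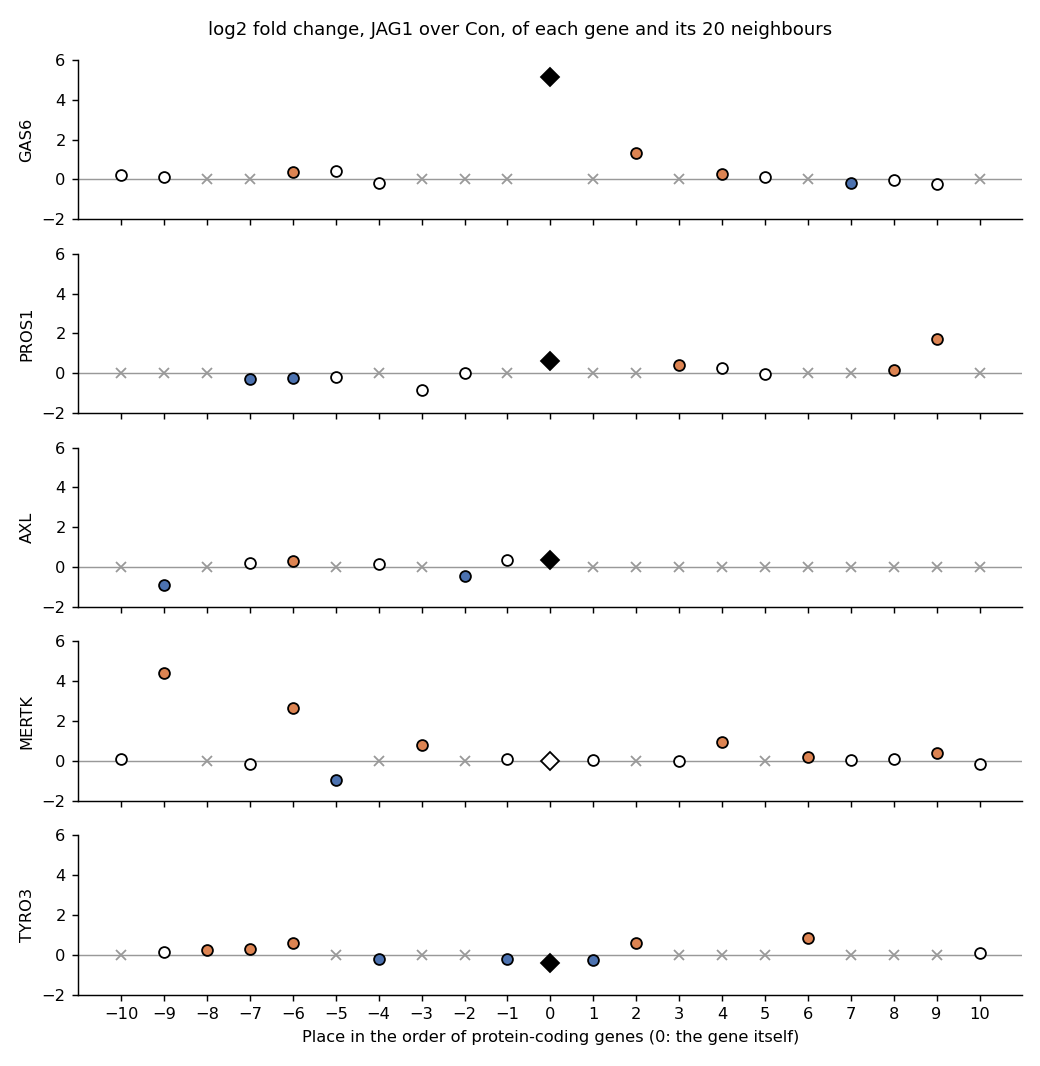
The log2 fold change of JAG1 over Con (vertical axis) of each member (diamond at place 0, white for MERTK, which had no reads) and of the 10 protein-coding genes on each side in the order along the chromosome (horizontal axis, place), orange for genes higher and blue for genes lower at an adjusted p under 0.05, white for those not past it and grey crosses for genes not tested. GAS6 at 5.16 stood far above all of its tested neighbours, the highest of which was RASA3 at 1.34.

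The genes whose profile over the 6 libraries was most like that of a member were found by the root mean square difference of log2 CPM, each profile centred on its own mean. For GAS6 they were POU3F3, a neural transcription factor, at a difference of 0.15 and SYCE2, a protein of meiotic chromosomes, at 0.17, followed by 1700012B09RIK at 0.19. POU3F3 went from 1.85 ± 0.193 to 63.9 ± 3.94 CPM and SYCE2 from 0.327 ± 0.0515 to 10.6 ± 1.17 CPM (SD, n = 3 each), log2 fold changes of 5.11 and 4.99. 1700012B09RIK went from 0.0174 ± 0.0302 CPM, under the limit of 3 reads, to 4.25 ± 0.660 CPM (SD, n = 3 each), so the size of its step cannot be set beside that of GAS6. For PROS1 the closest were MAP2K5 at 0.03 and 2300009A05RIK at 0.04, for AXL STIM2 at 0.02 and AIFM1 at 0.03, and for TYRO3 SUPT7L at 0.02 and RASSF1 at 0.04. With 6 libraries in 2 groups, the likeness is mostly that of the step between the groups, and it is a description.

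Markers of the cells in which TAM genes are otherwise known were read beside the members. Of the 10 astrocyte markers 6 were tested and all 6 were lower in JAG1 cells, SOX9, a glial transcription factor, from 181 ± 4.64 to 18.0 ± 1.25 CPM and GJA1, the gap junction protein, from 151 ± 35.8 to 96.6 ± 8.64 CPM (SD, n = 3 each), with edgeR adjusted p of 5.31e-11 and 0.00229. The microglia and macrophage markers, cells rich in MERTK and AXL, summed to 5.75 to 6.12 CPM in Con and 3.58 to 4.61 CPM in JAG1 libraries over 8 genes, with AIF1, P2RY12, ITGAM and PTPRC at 4 reads or fewer in every library. Of the 3 tested, TMEM119 fell from 2.24 ± 0.414 to 0.103 ± 0.0467 CPM, which made up most of the lower sum, CX3CR1 rose from 0.713 ± 0.210 to 1.26 ± 0.102 CPM (SD, n = 3 each), with edgeR adjusted p of 5.61e-06 and 0.0449, and CD68 did not pass. TMEM119 had 1, 2 and 2 reads in the JAG1 libraries, under the limit of 3 reads, so the size of its fall is uncertain. CX3CR1 missed the threshold without each library except Con replicate 2 (adjusted p of 0.0749 to 0.174). The oligodendrocyte list of 7 genes reached at most 1.19 CPM with 4 genes at 0, and the endothelial list of 5 genes at most 0.322 CPM with 1 gene at 0. The neuronal list of 5 genes summed to 76.4 to 84.4 CPM in Con and 8.05 to 9.11 CPM in JAG1 libraries, nearly all of it TUBB3, with SNAP25 and SYT1 at 0. The fibroblast and pericyte list of 5 genes summed to 319 to 322 CPM in Con and 170 to 202 CPM in JAG1 libraries, with LUM and RGS5 at 0. Nearly all of it was COL1A1, at 236 ± 2.56 CPM in Con and 164 ± 14.3 CPM in JAG1, and PDGFRB, at 82.2 ± 1.75 and 26.1 ± 3.34 CPM (SD, n = 3 each). The 3 tested genes, COL1A1, PDGFRB and DCN, were all lower in JAG1 cells at an edgeR adjusted p under 0.05. The part of these marker differences in the levels of GAS6, PROS1, AXL and TYRO3 was not tested, and in bulk RNA fewer cells of a type and less RNA per cell cannot be told apart.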

How the data were processed

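QuantSeq 3′ mRNA libraries of Con and JAG1 astrocytes, 3 each, were analysed. For each library the authors deposited the raw read count of each gene and a log2 normalized read count. The submitters' processing notes name the builds GRCm38 and mm10 and the tools Bowtie2, bedtools and edgeR, and the annotation, the strand setting and the normalization behind the log2 values are not given in the sources used here. Libraries held 14341634 to 20489062 counts.

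Counts were fitted in R 4.3.3 with edgeR 4.0.16. Its filterByExpr, at 10 counts, kept 11712 of 23282 genes, TMM factors were applied, and JAG1 was compared with Con by the quasi-likelihood test with the group as the only term. Benjamini-Hochberg adjustment ran over all tested genes, and an adjusted p under 0.05 made a call. Standard errors came from the F statistic. The test was checked on simulated data, in which 97% of 200 changed genes among 11712 were recovered. That share is not split by the size of the difference, and the number of false calls is not given. Recovery of differences as small as those of PROS1, AXL and TYRO3, or of list genes and neighbours with differences of that size, was not tested. In the libraries themselves 3211 genes were called higher and 3247 lower, far more than 200. For a single gene, an exact permutation test of 3 against 3 libraries cannot give a two-sided p under 0.1. Levels are CPM on the TMM scale, and a count of 3 was the limit of detection. Shares and ratios came from raw counts.

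The members and lists were chosen with earlier results of these data known. Named were the members, JAG1 and CDKN2A, from each list up to 2 called genes with the largest rise and 2 with the largest fall among those averaging 5 CPM or more, the nearest tested neighbours of each member, every called neighbour of GAS6, the genes most like each member (3 for GAS6, 2 for the others) and defining markers; others, and VKORC1, ADAM17, TWIST1, SOCS1, SOCS3, F2, F7, F9, F10, TMEM119, CX3CR1 and CD68, were named after their values were seen. Alternatives were DESeq2 1.42.0, library size alone, upper-quartile factors, no filter, a mean of 10 counts, a replicate block, leaving out each library, and limma 3.58.1 on the deposited log2 values. Names, positions, neighbours and windows came from RefSeq on GRCm38.p6. A few genes that this rule names are not reported here.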

Additional observations from a re-analysis of the deposited data

How the results depend on the processing

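The log2 fold changes of GAS6, PROS1, AXL and TYRO3 kept their direction under all 7 other settings, and the counts of called genes, over all genes and over the lists together, stayed within 1.5 times of those given. Leaving out 1 library at a time put GAS6 between 5.08 and 5.29 on the log2 scale, PROS1 between 0.51 and 0.66, AXL between 0.34 and 0.40 and TYRO3 between −0.48 and −0.34. From the deposited log2 values with limma, GAS6 was at 5.03. With 5 neighbours on each side in place of 10, the median was 0.27 for GAS6 and −0.21 for TYRO3, the latter with its sign turned. The same replicate numbers in both groups deviated together with correlations of 0.148, 0.0614 and 0.119. Unlike numbers had correlations of −0.144 to 0.0109, so every library correlated best with its own number. The correlations were weak, and whether the numbers mark a pairing was not settled. With the replicate block, 3380 genes were higher and 3331 lower, in the lists 32 and 40, and the log2 fold change of GAS6 was 5.16. Of 462 refits of 66 single genes under the 7 other settings, 21 changed the call or the sign. Of 396 refits with 1 library left out, 48 did, and 18 of the 66 genes changed at least once. With DESeq2 the adjusted p was 0.0536 for RXRB, 0.1602 for DCUN1D2, 0.0759 for GULP1, 0.0735 for RPAP1 and 0.1407 for CX3CR1, with library size alone 0.0538 for RPAP1 and 0.0507 for MGA, with upper-quartile factors 0.0761 for RXRB, 0.0596 for DCUN1D2 and 0.0511 for CX3CR1, without a filter 0.0762 for DCUN1D2, 0.0531 for RPAP1, 0.0729 for CX3CR1 and 0.0235 for F2, with limma 0.0548 for RXRB, and with the replicate block 0.0685 for DCUN1D2, 0.0507 for CX3CR1 and 0.0182 for F2. SOCS3 and CD68, not past the threshold, turned their sign and ran from −0.0349 to 0.2433 and from −0.3674 to 0.0083 with 1 library left out. GAS6 rested on 28 Con reads, so counting error adds to the error of its ratio, and MERTK could not be compared.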
